A study of Mus musculus with 16 samples.

Results

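The CXC chemokine ligands are small secreted proteins, named for a cysteine pair separated by one residue, that attract leukocytes through G protein-coupled receptors of the CXCR family. Ligands of CXCR2 call neutrophils, interferon-induced ligands of CXCR3 call activated T and NK cells, and CXCL13, the ligand of CXCR5, calls B cells. Peritoneal macrophages are a known source of CXCL13, which recruits B cells to the body cavities. All probe sets carrying exactly one of 10 gene symbols (Pf4, Ppbp, Cxcl1, Cxcl2, Cxcl3, Cxcl9, Cxcl10, Cxcl13, Cxcl14 and Cxcl16) were taken, which gave 16 of 45101 probe sets and 10 of 18194 genes. Cxcl1 had 3 probe sets, Cxcl9, Cxcl13, Cxcl14 and Cxcl16 had 2 each, and the other 5 genes had 1 each.

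Biotin-labelled total RNA of peritoneal tumour-associated macrophages from female C57BL/6N mice was hybridised to 16 arrays, in 4 groups of 4. All mice, aged 8 to 12 weeks, received 1 mg of oral tamoxifen, carried intraperitoneal ID8-luc tumours (5000000 ovarian cancer cells of the mouse line ID8 with luciferase, given 3 weeks later) for 4 weeks, and had their peritoneal cells sorted as CD45+, CD11b+ and F4/80+. The groups were CCR2+ cells of control mice, CCR2+ cells of RbpjiΔEC mice, CCR2- cells of control mice and CCR2- cells of RbpjiΔEC mice. RbpjiΔEC is the tamoxifen-induced deletion of the Notch effector gene Rbpj in endothelial cells, so the sorted macrophages are not the cell type targeted. The labels used here name neither the Cre driver nor what the control mice carry, and nothing says that the 4 arrays of a group are separate mice, so p-values measure the spread between these arrays, which may be technical.

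The arrays did not follow their sort labels in every respect. The level (log2 intensity) of Ccr2 mRNA was 7.99 ± 1.05 (SD, n = 4) in CCR2+ control arrays and 9.99 ± 1.08 in CCR2- control arrays, a difference of -1.99 against the label (limma adjusted p = 0.0184); in RbpjiΔEC mice the means were 7.69 and 8.94 (adjusted p = 0.135). B cell markers were higher in the CCR2- arrays (11 of 11 measured, median difference -5.19 in control mice) and markers of large peritoneal macrophages were higher in the CCR2+ arrays (15 of 15, median 5.22), Adgre1, which encodes F4/80, reading 13.25 ± 0.14 against 9.21 ± 0.24. The deposited values were also of a different kind in each label: CCR2+ arrays had mean intensities of 821 to 827 and CCR2- arrays of 481 to 762, and in the CCR2- arrays 100% of values were fractions with a divisor of at most 22, against 2.58% to 2.91% in the CCR2+ arrays. Sort label and kind of processing therefore cannot be told apart. CCR2- control array 3 stood apart, its lowest intensity being 99.9 against 35.2 to 52.7 in the other 7 CCR2- arrays; without it the number of ligands called stayed at 7 in both label comparisons and at 0 between genotypes. The difference between actin 3' and 5' probe sets, a measure of RNA integrity, was 0.218 in CCR2+ control and 0.365 in CCR2- control arrays (exact permutation p = 0.0286, two-sided, the smallest that 4 against 4 can give), and 0.329 and 0.341 in the RbpjiΔEC arrays (exact p = 0.886); for GAPDH the labels gave exact p = 0.486 in control and 1.0 in RbpjiΔEC mice. The trp probe sets, array controls with no mouse target, read between 6.03 and 6.72 and mark the background here.

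The 10 genes lie on 3 chromosomes. In the RefSeq order of coding genes, chromosome 5 carries the run Ppbp, Pf4, Cxcl3, Cxcl15, Cxcl1 and Cxcl2, with Cxcl5 on its outer side next to Ppbp; Cxcl9 and Cxcl10, separated by Art3, and Cxcl13 lie elsewhere on chromosome 5, Cxcl14 on chromosome 13 and Cxcl16 on chromosome 11. For 9 of the 10 genes RefSeq (GRCm38.p6) gave a window of 250 bases before to 50 after the start; Cxcl16 had no entry. Cxcl1, Cxcl2 and Cxcl3 of this run share a motif, while their measured label differences were unequal, that of Cxcl3 being limited by the background. The 250 bases before their starts are therefore shown (chr5:90890995-90891244, chr5:90903649-90903898 and chr5:90785851-90786100, plus strand), 5' to 3', with the match to the NF-kB motif GGGANNTTC in capitals.
Cxcl1: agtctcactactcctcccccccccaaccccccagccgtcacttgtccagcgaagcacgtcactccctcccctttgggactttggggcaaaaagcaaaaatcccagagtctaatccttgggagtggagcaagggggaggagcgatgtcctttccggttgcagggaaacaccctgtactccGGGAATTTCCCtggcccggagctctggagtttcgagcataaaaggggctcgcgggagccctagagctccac
Cxcl2: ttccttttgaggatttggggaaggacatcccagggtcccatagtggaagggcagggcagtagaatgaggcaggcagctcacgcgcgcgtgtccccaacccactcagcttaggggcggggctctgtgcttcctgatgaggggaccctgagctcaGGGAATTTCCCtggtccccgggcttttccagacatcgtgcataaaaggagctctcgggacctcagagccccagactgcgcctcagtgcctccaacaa
Cxcl3: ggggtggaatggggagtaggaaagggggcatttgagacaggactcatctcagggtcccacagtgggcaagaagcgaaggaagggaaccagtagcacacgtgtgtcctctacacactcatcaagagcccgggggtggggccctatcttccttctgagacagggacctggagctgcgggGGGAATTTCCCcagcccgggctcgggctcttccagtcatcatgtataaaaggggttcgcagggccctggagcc
The same 11 letters, GGGAATTTCCC, lay 71, 97 and 73 bases before the 3 starts, and hold the motif on both strands, the 2 matches overlapping. Of 32851 mouse windows of 300 bases, 3.94% held GGGANNTTC on either strand; 5 of the 9 windows did, the remaining ones being those of Cxcl9 and Cxcl10. The promoters of these interferon-induced neighbours (chr5:92328080-92328329 and chr5:92348890-92349139, minus strand) are shown because each also held the interferon-response motif GAAANNGAA, matches to either motif being in capitals.
Cxcl9: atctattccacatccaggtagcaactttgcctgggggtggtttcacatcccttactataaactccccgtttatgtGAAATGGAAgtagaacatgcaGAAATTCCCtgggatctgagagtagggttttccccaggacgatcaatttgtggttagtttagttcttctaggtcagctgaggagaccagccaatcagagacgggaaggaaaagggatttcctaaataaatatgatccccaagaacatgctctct
Cxcl10: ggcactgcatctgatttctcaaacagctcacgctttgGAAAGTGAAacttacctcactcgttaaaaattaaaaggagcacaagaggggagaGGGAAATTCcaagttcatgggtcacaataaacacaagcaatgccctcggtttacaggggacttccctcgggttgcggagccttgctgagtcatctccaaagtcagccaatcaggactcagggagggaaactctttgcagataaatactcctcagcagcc
The interferon-response match began 175 bases before the start of Cxcl9 and 213 before that of Cxcl10, and the NF-kB match 154 and 159 bases before. GAAANNGAA was found in 8.56% of all windows and in 3 of these 9, the other being Cxcl14. The further letters searched on both strands were TTCNNNGAA (8.3% of all windows, 1 of 9), TATAAA (13.62%, 4 of 9) and AGATAA (11.18%, 2 of 9). Pf4 and Cxcl13, which differed most between the sort labels, held neither the NF-kB nor the interferon-response letters in these windows (Pf4 chr5:90772185-90772434, Cxcl13 chr5:95956689-95956938, plus strand, before the start). The letters were chosen after matches in these promoters had been seen, so the shares among the 9 windows are no independent evidence. These matches describe letters only.

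The first question was how the ligands differed between cells sorted as CCR2+ and as CCR2-. Of the 10 ligands, 7 were higher in the CCR2+ arrays of control mice and the same number in RbpjiΔEC mice, none was lower, and 3 did not pass in each (limma, Benjamini-Hochberg adjusted p under 0.05 over 18194 genes). Of all genes, 40.8% were called in control mice and 39.1% in RbpjiΔEC mice, with 19.4% and 18.1% called higher and 21.4% and 21.0% called lower. Of the 16 probe sets of the ligands, 12 passed in each genotype, against 40.2% and 37.8% of all probe sets. Those called in both genotypes were Pf4, Cxcl13, Cxcl2, Cxcl1, Cxcl16, Cxcl14 and Cxcl3. By measured difference, Pf4, Cxcl13, Cxcl2 and Cxcl1 were called and at least 4-fold higher in both genotypes, where 3.10% and 3.07% of all genes were. The median difference of the 10 was 1.54 in control and 1.35 in RbpjiΔEC mice, against -0.03 over all genes in both. Over all genes the share of calls that were higher moved with the scaling, from 47.6% to 62.7% with median centring, 72.6% with the deposited values and 52.5% with quantile normalization within each label in control mice, and from 46.3% to 55.2%, 82.6% and 52.7% in RbpjiΔEC mice; log2 of the deposited values also moved the median over all genes to 0.23 in RbpjiΔEC mice. In these bulk arrays, fewer cells of a type and less RNA per cell cannot be told apart.

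**Figure D1:**
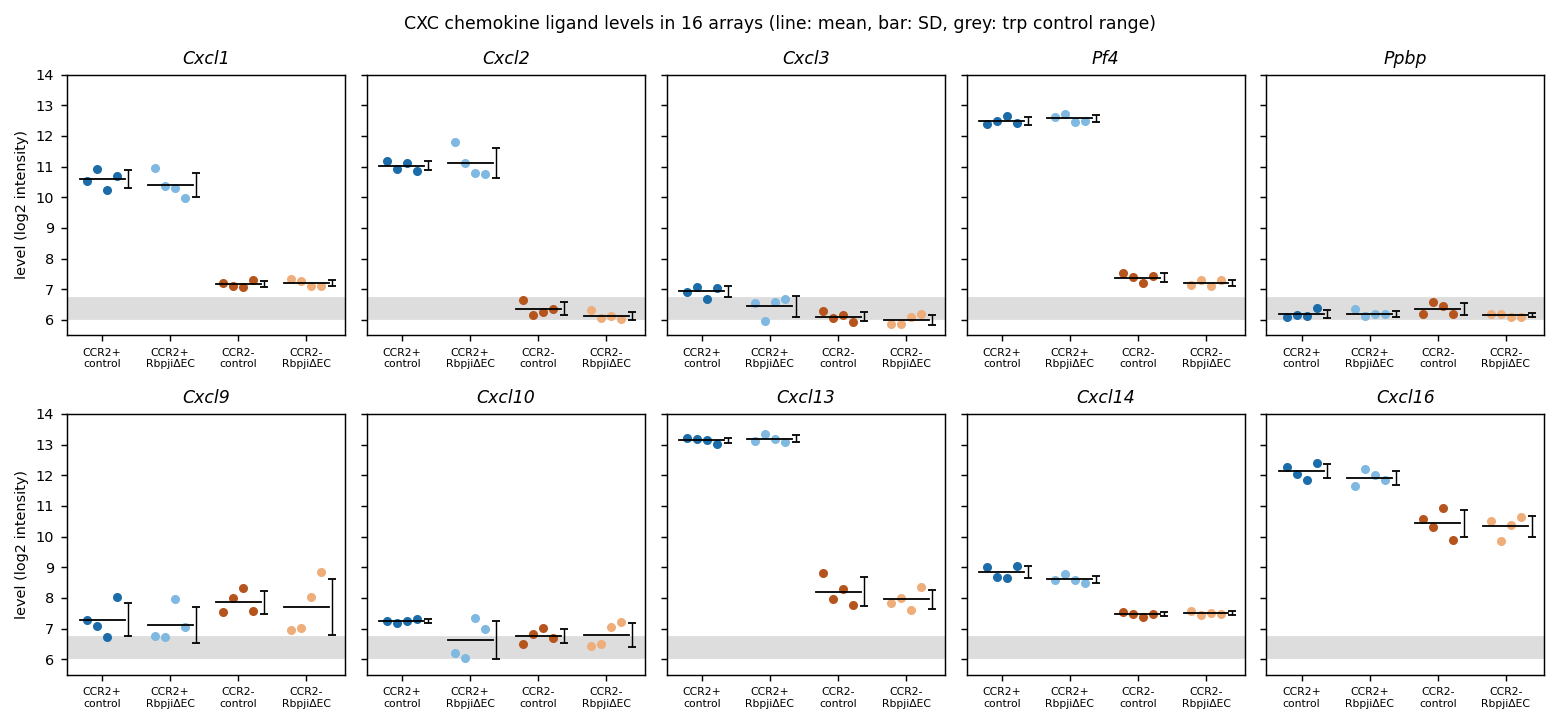
Level (log2 intensity, quantile normalized) of each of the 10 CXC ligands in the 16 arrays, 1 point per array, with the mean (line) and SD (bar) of each group of 4; the grey band spans the trp control probe sets (6.03 to 6.72). Pf4, Cxcl13, Cxcl2 and Cxcl1 fall into a high CCR2+ and a low CCR2- band, Ppbp lies at the background in nearly every array, and Cxcl9 and Cxcl10 overlap between the labels in RbpjiΔEC mice.

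**Figure D2:**
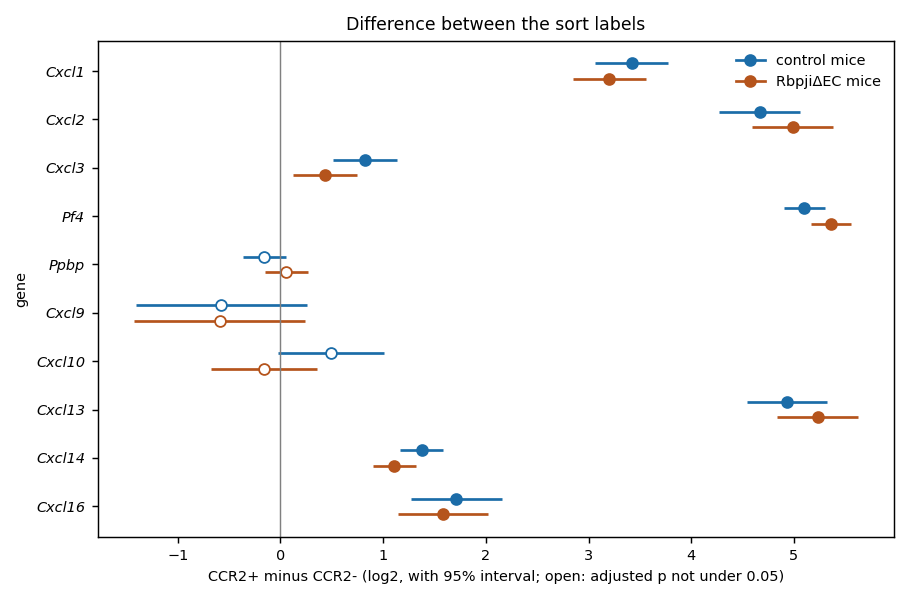
Difference between sort labels (CCR2+ minus CCR2-, log2) of each ligand with its 95% interval, in control (blue) and RbpjiΔEC (brown) mice; filled points passed the adjusted p of 0.05. The 7 filled genes all lie above 0, from 0.44 for Cxcl3 in RbpjiΔEC mice to 5.36 for Pf4 in RbpjiΔEC mice.

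Cxcl1, Cxcl2 and Cxcl3 encode neutrophil attractants that bind CXCR2, and in macrophages they are classic targets of NF-kB. Cxcl1 read 10.53, 10.91, 10.22 and 10.70 in CCR2+ control arrays 1 to 4 and 10.94, 10.37, 10.31 and 9.98 in the CCR2+ RbpjiΔEC arrays. The CCR2- arrays gave 7.20, 7.11, 7.06 and 7.29 in control and 7.33, 7.25, 7.12 and 7.11 in RbpjiΔEC mice. Every CCR2+ array lay above every CCR2- array, and the low values were all within 0.3 of each other. Cxcl1 was 10.7-fold higher in control mice (3.42, SE 0.17, adjusted p = 5.02e-11) and 9.19-fold higher in RbpjiΔEC mice (3.20, adjusted p = 1.14e-10). The probe set chosen for Cxcl1 may by its suffix (_s_at) also match related transcripts; the gene's plain probe set (_at) differed by 3.67 and 3.54, and the remaining one by 3.28 and 3.14.

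The level of Cxcl2 was 11.19, 10.92, 11.12 and 10.87 in CCR2+ control arrays and 11.81, 11.13, 10.80 and 10.75 in CCR2+ RbpjiΔEC arrays. It was 6.65, 6.16, 6.26 and 6.36 in CCR2- control and 6.33, 6.06, 6.12 and 6.03 in CCR2- RbpjiΔEC arrays. The CCR2+ arrays were all high, while 3 of 4 CCR2- control and 4 of 4 CCR2- RbpjiΔEC arrays were no brighter than the brightest trp control probe set of their own array. Against the background level of each array, Cxcl2 was at least 21.7-fold higher in control mice (measured difference 4.67, SE 0.18, adjusted p = 3.03e-12) and at least 23.0-fold higher in RbpjiΔEC mice (measured difference 4.99, adjusted p = 1.24e-12).

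Cxcl3 lay near the background, with 6.92, 7.07, 6.69 and 7.03 in CCR2+ control and 6.55, 5.95, 6.58 and 6.69 in CCR2+ RbpjiΔEC arrays. CCR2- arrays read 6.29, 6.06, 6.15 and 5.92 in control and 5.86, 5.88, 6.10 and 6.19 in RbpjiΔEC mice, none of them above its array's trp controls. The labels did not overlap in control mice and overlapped in RbpjiΔEC mice, where 2 of the 4 CCR2+ arrays were at background too. In control mice Cxcl3 was at least 1.27-fold higher (measured difference 0.82, SE 0.15, adjusted p = 0.000217). The RbpjiΔEC difference of 0.44 (adjusted p = 0.0255) has no bound above 1 and did not pass under 9 of 24 alternatives, reading 0.15 with median centring (adjusted p = 0.542). The sequences of the 3 promoters above hold the same NF-kB letters, while in control mice Cxcl1 differed by 3.42 and Cxcl2 and Cxcl3 by at least 4.44 and 0.35, bounds against the background.

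Genes of the NF-kB response did not move one way as a list. Of 15 measured, 4 were higher, 3 lower and 8 not called in control mice (median -0.07), and 4, 5 and 6 in RbpjiΔEC mice (median -0.12). Tnfaip2, a TNF-induced gene, was higher by 3.92 in control and 4.15 in RbpjiΔEC mice on the log2 scale, while Il6, an inflammatory cytokine at background in every CCR2- array, was at least 8.67-fold and 6.26-fold higher. Il1b, encoding interleukin-1 beta, was lower by 1.22 and 1.45 on the log2 scale. Neutrophil markers gave 2 higher, 0 lower and 8 not called of 10 in each genotype; those higher were Csf3r, the G-CSF receptor (3.21 and 3.30), and Mmp9, a gelatinase (0.93 and 1.45). The summed intensity of the neutrophil list ran from 2553 to 4803 in CCR2+ control and from 1239 to 6987 in CCR2- control arrays, which overlap. In RbpjiΔEC mice it ran from 2418 to 3520 in CCR2+ and from 1246 to 1401 in CCR2- arrays, which do not overlap. Its part in the Cxcl1, Cxcl2 and Cxcl3 differences was not tested.

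Pf4 and Ppbp encode the abundant chemokines of platelet granules, platelet factor 4 and the precursor of the CXCR2 ligand NAP-2, and lie next to each other. Pf4 read 12.38, 12.47, 12.65 and 12.43 in CCR2+ control and 12.63, 12.71, 12.46 and 12.49 in CCR2+ RbpjiΔEC arrays. In CCR2- arrays it read 7.52, 7.40, 7.19 and 7.42 in control and 7.15, 7.29, 7.11 and 7.30 in RbpjiΔEC mice. These groups were tight and far apart. Pf4 was 34.4-fold higher in control mice (5.10, SE 0.09, adjusted p = 3.75e-16) and 41.1-fold higher in RbpjiΔEC mice (5.36, adjusted p = 1.87e-16), in both the greatest difference among the 10 ligands by the probe set chosen for each gene, ranking 52 and 44 by size among 18194 genes. A second Cxcl13 probe set, below, exceeded it.

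Ppbp stayed between 6.09 and 6.59 in all 16 arrays, with means of 6.20 ± 0.12 and 6.21 ± 0.10 in CCR2+ control and RbpjiΔEC arrays and 6.35 ± 0.20 and 6.15 ± 0.06 in the CCR2- arrays (SD, n = 4 each). It was at background in all but 1 array, CCR2- control array 2. Its differences between labels were -0.16 (95% interval -0.37 to 0.05, adjusted p = 0.234) and 0.05 (-0.16 to 0.26, adjusted p = 0.718). Of 12 platelet and megakaryocyte markers measured, 4 were higher, 1 lower and 7 not called in control mice, and 3, 1 and 8 in RbpjiΔEC mice. Clec1b, the podoplanin receptor CLEC-2, differed by 2.62 and 2.35, Itgb3, integrin beta 3, by 1.65 and 2.20, Gp1bb by 0.58 and 0.82, and Gp9, the other platelet glycoprotein chain named here, by -0.56 and -0.41. Their summed intensity was 2559 to 2743 in CCR2+ control and 1631 to 1899 in CCR2- control arrays. Its part in the Pf4 difference was not tested.

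Cxcl13, the B cell attractant, also separated the labels fully. It read 13.20, 13.18, 13.16 and 13.01 in CCR2+ control arrays and 13.11, 13.35, 13.17 and 13.09 in CCR2+ RbpjiΔEC arrays. CCR2- values were 8.82, 7.97, 8.28 and 7.75 in control and 7.83, 8.00, 7.62 and 8.34 in RbpjiΔEC mice, more spread than the CCR2+ values and far below them. The difference was 4.93 in control mice (SE 0.19, 30.5-fold, adjusted p = 1.56e-12) and 5.23 in RbpjiΔEC mice (37.6-fold, adjusted p = 6.83e-13). A second Cxcl13 probe set differed by 6.15 and 6.54, a ratio more than 1.5 times that of the first.

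Its receptor Cxcr5 ran the other way. Cxcr5 read 7.06, 7.04, 6.98 and 7.21 in CCR2+ control and 11.81, 11.85, 11.91 and 12.23 in CCR2- control arrays, with no overlap. The difference was -4.88 (SE 0.13, adjusted p = 1.54e-14) in control and -5.08 in RbpjiΔEC mice. All 11 B cell markers measured of 13 listed changed in the direction of Cxcr5 in both genotypes, and Ms4a1, which encodes CD20, was lower in CCR2+ arrays by 6.46 and 6.55 on the log2 scale. Their summed intensity ran from 1564 to 1926 in CCR2+ control and from 63487 to 66850 in CCR2- control arrays; its part in the Cxcr5 difference was not tested.

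Cxcl9 and Cxcl10 are interferon-induced ligands of CXCR3. Cxcl9 read 7.29, 7.09, 6.73 and 8.01 in CCR2+ control, 6.76, 6.71, 7.96 and 7.05 in CCR2+ RbpjiΔEC, 7.54, 8.00, 8.32 and 7.57 in CCR2- control, and 6.94, 7.01, 8.04 and 8.86 in CCR2- RbpjiΔEC arrays. All groups overlapped. CCR2+ minus CCR2- was -0.57 in control (SE 0.39, 95% interval -1.41 to 0.26, adjusted p = 0.272) and -0.59 in RbpjiΔEC mice (-1.43 to 0.24, adjusted p = 0.264). The second Cxcl9 probe set differed by only -0.09 and -0.12 (limma adjusted p = 0.452 and 0.27 over probe sets). Its group means ran from 6.87 to 7.02. Cxcl10 read 7.25, 7.17, 7.26 and 7.32 in CCR2+ control, 6.19, 6.05, 7.34 and 6.97 in CCR2+ RbpjiΔEC, 6.50, 6.81, 7.02 and 6.69 in CCR2- control, and 6.42, 6.51, 7.05 and 7.22 in CCR2- RbpjiΔEC arrays. The CCR2+ control arrays were close together and above every CCR2- control array, while CCR2+ RbpjiΔEC arrays 1 and 2 were at background and arrays 3 and 4 were not. Its label difference was 0.49 in control (SE 0.24, 95% interval -0.02 to 1.01, adjusted p = 0.122) and -0.16 in RbpjiΔEC mice (-0.68 to 0.35, adjusted p = 0.651). In control mice the Cxcl10 difference passed when only those 2 groups were fitted (adjusted p = 0.00668). Groups did not overlap for 8 of the 10 ligands in control and 6 in RbpjiΔEC mice, against 37.4% and 38.2% of all genes.

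Other interferon gamma responders were split. Of 15 measured, 5 were higher, 5 lower and 5 not called in control mice (median -0.07), and 2, 7 and 6 in RbpjiΔEC mice (median -0.22). Ciita, the transactivator of MHC class II genes, differed by -2.94 and -3.12 and Cd274, encoding PD-L1, by -1.41 and -1.69, whereas the GTPases Gbp6 (2.26 and 2.27) and Irgm2 (1.33 and 1.27) were higher in CCR2+ arrays. T and NK markers gave 0 higher, 3 lower and 9 not called of 12 in control mice and 0, 4 and 8 in RbpjiΔEC mice; in control mice Cd2 differed by -5.58, the cytotoxic granule gene Prf1 by -1.38 and Cd3g of the T cell receptor complex by -1.17. Their summed intensity was 2019 to 2710 in CCR2+ control and 10872 to 12700 in CCR2- control arrays. In CCR2- control arrays Cd2 averaged 12.83 and Prf1 11.34, against 8.05 for Cd3g, so Cd2 weighs most in that sum. Which cells carried Cd2, and the part of the sum in the Cxcl9, Cxcl10 and Cxcr3 values, were not tested.

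By the probe set chosen for each gene, Cxcl9 and Cxcl10 varied together from array to array within the CCR2- label. Over those 8 arrays Pearson's r was 0.944 (exact permutation p = 0.000422, two-sided; adjusted p = 0.038 over 90 pairs, the 45 gene pairs in each label), and Spearman's rho was 0.952 (exact permutation p = 0.00114, adjusted p = 0.1). Without the 2 arrays farthest from the median of Cxcl9, r was 0.879, and without CCR2- control array 3 it was 0.937. Cxcl10 was at background in 1 of 4 CCR2- control and 2 of 4 CCR2- RbpjiΔEC arrays, so the low end of the relation rests on background readings of Cxcl10. In the 8 CCR2+ arrays r was 0.642 (exact permutation p = 0.051, adjusted p = 0.417); the difference between the correlations was not tested. By Pearson's r the other 89 of the 90 correlations did not pass, the next lowest adjusted p, 0.193, being that of Cxcl14 with Cxcl16 in CCR2+ arrays (r = 0.867). By Spearman's rho no pair passed. Pf4 with Cxcl9 in CCR2+ arrays (rho = -0.929) had the same exact permutation adjusted p of 0.1 as Cxcl9 with Cxcl10 in CCR2- arrays. With 4 arrays a genotype, the relation within genotypes is not reported here.

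**Figure D3:**
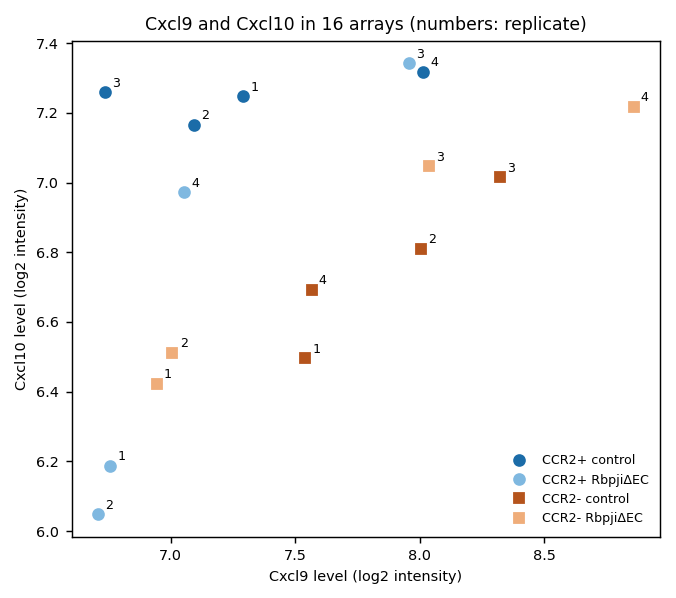
Cxcl10 level against Cxcl9 level (both log2 intensity) in the 16 arrays, circles for CCR2+ and squares for CCR2- arrays, dark for control and light for RbpjiΔEC mice, numbered by replicate. The squares rise together from 6.94 and 6.42 in CCR2- RbpjiΔEC array 1, where Cxcl10 is at background, to 8.86 and 7.22 in array 4. The 4 CCR2+ control arrays keep to a narrow range of Cxcl10, 7.17 to 7.32.

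Cxcl14 and Cxcl16 stand apart from the receptor groups above. Cxcl14 encodes a homeostatic chemokine of epithelia whose receptor is not settled. It read 9.02, 8.67, 8.65 and 9.03 in CCR2+ control and 8.59, 8.77, 8.57 and 8.49 in CCR2+ RbpjiΔEC arrays. All 8 CCR2- arrays lay between 7.39 and 7.58, without overlap. Cxcl14 was 2.60-fold higher in control mice (1.38, SE 0.10, adjusted p = 5.71e-09) and 2.16-fold higher in RbpjiΔEC mice (1.11, adjusted p = 8.47e-08); its second probe set differed by 1.73 and 1.42.

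Cxcl16 encodes a membrane-bound ligand of CXCR6 that also acts as a scavenger receptor and can be shed. Its level was 12.26, 12.05, 11.85 and 12.40 in CCR2+ control and 11.66, 12.20, 11.99 and 11.83 in CCR2+ RbpjiΔEC arrays. CCR2- arrays read 10.58, 10.29, 10.93 and 9.90 in control and 10.52, 9.85, 10.36 and 10.63 in RbpjiΔEC mice. The labels did not overlap, and all 16 arrays were well above background. Cxcl16 was 3.28-fold higher in control mice (1.71, SE 0.21, adjusted p = 3.97e-06) and 3.00-fold higher in RbpjiΔEC mice (1.58, adjusted p = 9.96e-06); its second probe set differed by 1.53 and 1.40.

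Among the CXC ligands not chosen above, Cxcl12, the ligand of CXCR4 and of the scavenger ACKR3, was higher in CCR2+ arrays, with means of 9.61 ± 0.43 and 6.87 ± 0.17 in control mice (2.75, SE 0.22, adjusted p = 2.65e-08) and a difference of 2.80 in RbpjiΔEC mice (adjusted p = 2.06e-08). Its probe sets disagreed, the other pair differing by 1.07 and 0.14 in control mice, the latter not called (limma adjusted p = 0.436 over probe sets). By their chosen probe sets Cxcl5, Cxcl11, Cxcl15 and Cxcl17 were not called, with differences of -0.09 to 0.07 over both genotypes; Cxcl5 and Cxcl11 were at background in all 16 arrays. The other Cxcl15 probe set was called lower in RbpjiΔEC mice (-0.34, adjusted p = 0.0331 over probe sets) and not in control mice (-0.13, adjusted p = 0.41). Of 8 listed receptors, 7 were measured. In control mice 1 was higher, 4 lower and 2 not called; in RbpjiΔEC mice 1, 3 and 3. The scavenger Ackr3 was higher (10.53 ± 0.35 against 6.48 ± 0.25 in control mice); 2 of 4 CCR2- control and 4 of 4 CCR2- RbpjiΔEC arrays were at background, so it was higher by at least 3.90 and 4.04 on the log2 scale. Cxcr4 was lower (9.19 ± 0.42 against 12.09 ± 0.18; -2.89 and -2.81), as was Cxcr3 (7.01 ± 0.10 against 8.59 ± 0.79; -1.58, adjusted p = 0.00042, and -1.57). Ackr1, the atypical receptor of red cells and venules, differed by -0.30 (adjusted p = 0.0167) and by -0.12, which did not pass (adjusted p = 0.358).

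Cxcr6 and Cxcr2 did not pass. Cxcr6, the receptor of Cxcl16, averaged 8.64 ± 0.33 in CCR2+ and 8.82 ± 0.25 in CCR2- control arrays (-0.18, and -0.05 in RbpjiΔEC mice). The other Cxcr6 probe set differed by 0.30 in control and -0.04 in RbpjiΔEC mice, neither called (limma adjusted p = 0.139 and 0.884 over probe sets). Cxcr2, the receptor of Cxcl1, Cxcl2 and Cxcl3, averaged 6.71 ± 0.30 and 6.69 ± 0.46 (0.01; 0.16 in RbpjiΔEC mice). For CXCL13 with CXCR5, and for CXCL12 with CXCR4, the ligand's mRNA was thus higher under one sort label and the receptor's under the other. Ackr3, which encodes another receptor of CXCL12, was higher under the same label as Cxcl12.

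**Figure D4:**
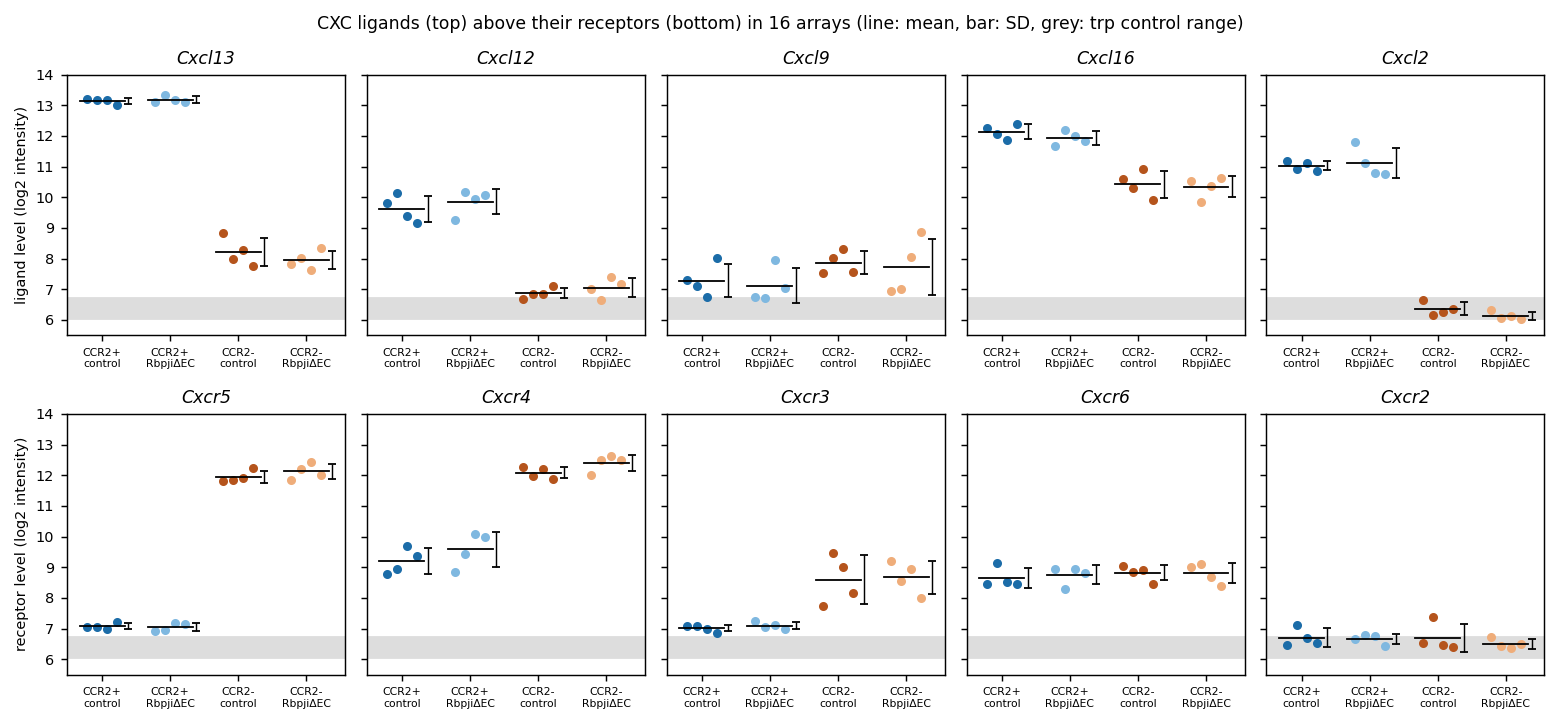
Level (log2 intensity) of 5 CXC ligands (top) and, below each, a receptor it binds, in the 16 arrays; lines are means, bars SDs of 4 arrays and the grey band the trp control range. Cxcl13 and Cxcl12 are high in CCR2+ arrays where Cxcr5 and Cxcr4 are low, and Cxcr2 lies at or near the background under both labels.

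For the 4 ligands called in both genotypes with a difference of at least 2, the most similar genes over the 16 arrays were found by the root mean square difference of mean-centred levels. For Pf4 they were Thbs1, which encodes the platelet and macrophage protein thrombospondin 1 (0.154), and Pmp22 (0.186). Cxcl13 was nearest to Pf4 (0.243) and Thbs1 (0.270). Nearest to Cxcl2 were the peptidylarginine deiminase gene Padi4 (0.220) and Mlxipl, a glucose-sensing transcription factor (0.238), and nearest to Cxcl1 were Kctd12b (0.229) and the integrin gene Itga6 (0.234). All 7 of these genes differed between the labels in control mice by 3.12 to 5.24. Their choice by likeness to ligands that differ between the labels fixes this in advance, so it is no independent evidence.

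The second question was whether endothelial loss of Rbpj went with a different level of these ligands in the sorted cells. No ligand passed in either sort label. Within CCR2+ arrays 0 of 10 were called (0% of all 18194 genes), and 3 of 10 had an unadjusted limma p under 0.05, as did 830 genes, 4.56%. The median difference, RbpjiΔEC minus control, was -0.18 for the 10 and -0.01 over all genes. The genotype comparisons share arrays with the label comparisons above.

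Cxcl3 was the ligand whose CCR2+ groups did not overlap, as they did not for 3.39% of all genes; the margin was thin, RbpjiΔEC array 4 reading 6.6906 and control array 3 reading 6.6914. Its difference was -0.48 (SE 0.15, 95% interval -0.79 to -0.17, adjusted p = 0.913), near background as given above. Cxcl10 differed by -0.61 (SE 0.24, -1.13 to -0.09, adjusted p = 0.966), with RbpjiΔEC arrays 1 and 2 low, array 3 just above the control range and array 4 below it. Cxcl14 differed by -0.24 (SE 0.10, -0.44 to -0.03, adjusted p = 0.966). The actin 3' minus 5' difference was 0.329 in CCR2+ RbpjiΔEC and 0.218 in CCR2+ control arrays (exact permutation p = 0.0857, two-sided; GAPDH 0.162 and 0.172, exact p = 0.886), and its part in these values was not tested.

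The other 7 ligands differed by -0.22 (Cxcl16) to 0.10 (Cxcl2) in CCR2+ arrays. Pf4 differed by 0.09 (95% interval -0.10 to 0.29) and Cxcl13 by 0.04 (-0.35 to 0.44). Cxcl9 had the widest, -0.16 (-0.999 to 0.67). In CCR2- arrays 0 of 10 were called (0% of all genes; 390 genes, 2.14%, and 0 of the 10 had an unadjusted p under 0.05), with differences of -0.26 (Cxcl13) to 0.05 (Cxcl10) and a median of -0.12 against -0.00 over all genes; none of the 10 had groups without overlap, as 1.56% of all genes had. The interaction of label and genotype also gave 0 of 10 (0% of all genes; 555 genes, 3.05%, and 0 of the 10 unadjusted), ranging from -0.66 for Cxcl10 (95% interval -1.39 to 0.07) to 0.32 for Cxcl2 (-0.23 to 0.88), all with an adjusted p of 0.999. None of the 12 gene lists had a called member in a genotype comparison. A single array decided the sign of some of these values: without CCR2+ RbpjiΔEC array 1, Cxcl2 read -0.13 in CCR2+ arrays in place of 0.10.

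**Figure D5:**
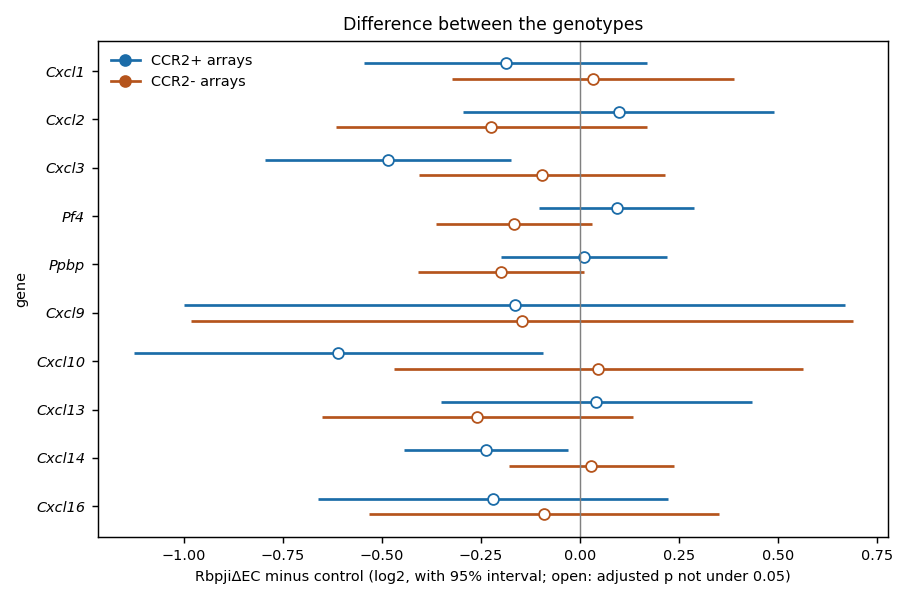
Difference between genotypes (RbpjiΔEC minus control, log2) of each ligand with its 95% interval, in CCR2+ (blue) and CCR2- (brown) arrays. All points are open, none having passed the adjusted p of 0.05; the unadjusted intervals of Cxcl3, Cxcl10 and Cxcl14 in CCR2+ arrays lie below 0.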

How the data were processed

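Gene expression was measured on 16 one-colour arrays with biotin-labelled RNA. The deposited table gives 1 linear intensity per probe set and array; no source used here says how it was scaled, and its values differ in kind between the sort labels (see the report). The members and gene lists were chosen with earlier results of these data known. From the deposited intensities, log2 was taken and all 16 arrays were quantile normalized. Of 45101 probe sets, 34958 had 1 gene symbol in the platform annotation, 932 several, and 9211 were unlisted or unnamed; the brightest single-symbol probe set by mean over the arrays stood for each of 18194 genes. A group-means model was fitted with limma 3.58.1 (R 4.3.3) over all genes, with 5 contrasts and Benjamini-Hochberg adjustment (threshold 0.05), and again over all probe sets for genes with several. On simulated data with 18194 genes, 90% of changes of 1 log2 unit were recovered for the label comparison in control mice and 92% for the genotype comparison in CCR2+ arrays. Of changes of 0.5 log2 units, 38% and 46% were recovered. For the interaction, 68% of changes of 1 and 16% of changes of 0.5 were recovered. The simulation used normal noise and changed 50 genes per size, far fewer than were called between the labels. In the main fits no gene was called between genotypes or for the interaction. The planted changes loosen the adjustment there, so these recovery rates can be too high for those comparisons. The genes named were all 10 members, all measured other CXC ligands and receptors, up to 4 genes of each other list with the greatest label difference in control mice (whose direction is then no independent evidence), and for each member that differed by at least 2 in both genotypes the 2 nearest genes. Adgre1 was named after its values were seen, to check the sort, and the motif letters were chosen after matches in these promoters had been seen. Alternatives covered scaling, a filter on dim genes, probe set averaging, the variance model, array weights, the arrays fitted, a replicate block and leaving out each array. The number of arrays limits the precision.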

Additional observations from a re-analysis of the deposited data

How the results depend on the processing

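The label calls of Pf4, Cxcl1, Cxcl2, Cxcl13, Cxcl14 and Cxcl16 kept their direction and passed under all 25 alternatives in both genotypes, and the number of ligands called was 6 to 8 in control and 6 to 7 in RbpjiΔEC mice. The filter on dim genes removed Ppbp, Cxcl3 and Cxcl10. Cxcl3 in RbpjiΔEC mice lost its call with median centring, with the deposited values (adjusted p = 0.0981), with quantile normalization within labels (0.341), with 2 groups fitted (0.0577) and without any one of CCR2+ RbpjiΔEC arrays 1 (0.0642), 3 (0.072) and 4 (0.0889) or CCR2- RbpjiΔEC arrays 1 (0.0706) and 2 (0.0718). Ppbp in control mice passed as lower with quantile normalization within labels (-0.39, adjusted p = 0.00338) and array weights (-0.25, 0.0418). No ligand was called between genotypes under any alternative. Over all genes, the CCR2+ genotype comparison called 1 gene with the filter on dim genes, 2 with averaged probe sets, 1 with array weights, 1 with the replicate block and 0 to 2 without single arrays; the CCR2- comparison called 0 to 1 without single arrays. Member probe sets gave 24 calls over 5 comparisons, and 23 and 26 under 2 other scalings. Causes were not tested.

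Whether the replicate numbers pair the arrays was not settled, and the main fits used no pairing. Correlations of same-numbered deviations ran from -0.03 to 0.40 for labels in control mice and 0.04 to 0.24 in RbpjiΔEC mice. For genotype they ran from -0.38 to 0.15 in CCR2+ and -0.10 to 0.19 in CCR2- arrays. In the same order, 3, 3, 0 and 2 of 4 arrays correlated best with their own number, so a pairing of the labels is possible. With the number as a replicate block 8 ligands were called in control mice, Cxcl10 (0.49, adjusted p = 0.0436) being added, and 7 in RbpjiΔEC mice, and over all genes 7504 and 7175.

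Values that changed sign were all outside the threshold. For the label difference in RbpjiΔEC mice Ppbp gave -0.25 with median centring and -0.20 with quantile normalization within labels, and Cxcl10 ran from -0.40 to 0.034 without single arrays. For genotype in CCR2+ arrays, median centring gave -0.040 for Ppbp and -0.029 for Cxcl13, and array weights gave -0.075 for Cxcl2, 0.093 for Cxcl9 and -6.24e-05 for Cxcl13; without single arrays Ppbp ran from -0.035 to 0.071, Cxcl2 from -0.13 to 0.22, Cxcl9 from -0.44 to 0.079 and Cxcl13 from -0.013 to 0.071. For genotype in CCR2- arrays, the deposited values gave -0.16 for Cxcl1, -0.11 for Cxcl10 and -0.16 for Cxcl14, where they moved the median over all genes to -0.16, and averaged probe sets gave -0.058 for Cxcl1; without single arrays Cxcl1 ran from -0.0085 to 0.075, Cxcl9 from -0.53 to 0.11, Cxcl10 from -0.093 to 0.17 and Cxcl16 from -0.27 to 0.078. The Cxcl9 interaction was 0.13 with the deposited values, 0.14 with array weights and -0.30 to 0.36 without single arrays, and that of Cxcl16 -0.30 to 0.047.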

Other observations

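Markers of 3 other kinds of peritoneal cell were counted between the sort labels. Of 12 mesothelial and tumour epithelial markers, 1 was higher in CCR2+ arrays, 2 were lower and 9 were not called in control mice; Epcam, an epithelial adhesion molecule, differed by -1.34, and the keratins Krt8 and Krt7 by -0.94 and 0.68. In RbpjiΔEC mice 1 was higher, 6 were lower and 5 were not called (median -0.30). Of 12 fibroblast and endothelial markers 1 was lower and 11 were not called in control mice, and 2 and 10 in RbpjiΔEC mice; the lower one in control mice was Pecam1, an adhesion molecule of endothelium and leukocytes (-4.05 in control, -4.10 in RbpjiΔEC mice). Monocyte and small peritoneal macrophage markers gave 2 higher, 5 lower and 1 not called of 8 in control mice and 1, 3 and 4 in RbpjiΔEC mice, Plac8 differing by -3.61 in control mice and Chil3, a chitinase-like secreted protein, by 1.94 in control mice and by at least 3.89 in RbpjiΔEC mice, where 3 of 4 CCR2- arrays were at background. Large peritoneal macrophage markers had differences of up to 6.14 (Tgfb2, a growth factor) in control mice.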
